A study of Rattus norvegicus with 5 samples.

Results

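A set of 10 immediate early genes is described here across 5 arrays of rat retinal Müller cells, the main glial cells of the retina: Fos, Fosl1, Jun, Junb, Jund, Egr1, Nr4a1, Atf3, Klf4 and Dusp1. They were listed by name, with earlier results of these data known. Every probe set annotated with one of these symbols alone was taken, 23 in all. Of these, 22 probe sets of 9 genes were bright enough to be tested, out of 3623 genes tested in the series, and the single probe set of Fosl1 was not. All cells came from male Sprague-Dawley rats, whose age the sources used here do not give. The normal group consists of 3 arrays, each with a pool from the retinas of 12 healthy rats. The diabetic group consists of 2 arrays from a pool of 12 rats, diabetic for 6 months after streptozotozine (streptozotocin) and given small doses of insulin. The second diabetic array is labelled a technical replicate, so both were averaged into 1 pool. All of the spread used in the test therefore comes from the normal pools, and how far diabetic pools differ from one another was not measured.

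Immediate early genes are switched on within minutes of a stimulus from factors already present in the cell, without new protein synthesis. Growth factors, calcium and stress act through MAP kinases, serum response factor and CREB on their promoters. Fos and Jun family proteins pair through leucine zippers to form AP-1, and Dusp1 encodes a phosphatase that switches MAP kinases off again. These genes are also known to respond when a tissue is taken apart into cells, and the sources used here do not say how the cells were isolated.

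The promoters of several members carry the sequence elements of this response, and 4 of them are shown because they hold the elements most clearly. The sequences are from RefSeq (GRCr8), cover the 250 bases before the annotated start, and read 5′ to 3′ on the gene's strand. Capitals mark the CREB element TGACGTCA, its 5-base core TGACG on either strand (printed as CGTCA on the reverse strand) and the CArG box, which binds serum response factor.
Egr1, chr18:26736828-26737077, strand +: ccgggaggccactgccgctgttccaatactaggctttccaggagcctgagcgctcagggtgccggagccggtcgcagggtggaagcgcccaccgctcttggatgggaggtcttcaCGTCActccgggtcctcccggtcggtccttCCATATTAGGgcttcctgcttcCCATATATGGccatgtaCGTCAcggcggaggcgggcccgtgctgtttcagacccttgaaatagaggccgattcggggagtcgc
Dusp1, chr10:17184603-17184852, strand +: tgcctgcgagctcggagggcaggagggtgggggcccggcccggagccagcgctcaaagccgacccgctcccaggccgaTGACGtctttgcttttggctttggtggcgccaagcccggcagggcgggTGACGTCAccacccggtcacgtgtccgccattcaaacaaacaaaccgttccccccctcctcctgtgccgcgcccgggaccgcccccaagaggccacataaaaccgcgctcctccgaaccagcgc
Nr4a1, chr7:134259888-134260137, strand +: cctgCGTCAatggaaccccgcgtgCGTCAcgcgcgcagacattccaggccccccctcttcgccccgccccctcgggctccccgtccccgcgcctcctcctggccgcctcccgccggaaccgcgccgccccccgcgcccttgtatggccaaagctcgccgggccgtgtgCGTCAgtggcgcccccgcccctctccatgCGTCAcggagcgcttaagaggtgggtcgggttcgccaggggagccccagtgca
Jund, chr16:18769772-18770021, strand -: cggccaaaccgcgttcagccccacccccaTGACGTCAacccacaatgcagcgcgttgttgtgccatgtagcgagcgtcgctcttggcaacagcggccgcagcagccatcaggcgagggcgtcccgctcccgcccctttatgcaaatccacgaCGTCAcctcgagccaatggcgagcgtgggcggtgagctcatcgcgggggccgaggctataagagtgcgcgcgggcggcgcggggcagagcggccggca
Windows of 7 of the 10 members were matched by symbol (Fosl1, Junb, Jund, Egr1, Nr4a1, Klf4 and Dusp1), and those of Fos, Jun and Atf3 were not used here. The core TGACG was found in 6 of the 7, against 18.2% of 33465 promoter windows of the same length, and each complete TGACGTCA also holds this core. The complete element was found in Jund and Dusp1, against 1.59% of all windows. In Dusp1 it lies 124 to 117 bases before the start. Egr1 held both CArG boxes found among the members, CCATATTAGG at 105 to 96 and CCATATATGG at 83 to 74 bases before the start, and 1.5% of all windows held a CArG box. The AP-1 site, TGACTCA or TGAGTCA, was found in 0 of the 7 windows and in 4.05% of all windows. No match was found in the window of Klf4, which says only that these letters are not in it.

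All 22 tested member probe sets lay below normal in the diabetic pool, by 0.12 to 1.56 on the log2 scale. With the deposited values left unscaled, 17 lay below and 5 above, but there the median of all tested probe sets stood at 0.47, and all 22 lay below that median. Values are log2 signals after quantile normalisation, which gives all arrays the same distribution, and signals under 20 were set to that floor (4.32 on the log2 scale). The median difference of the members was -0.70, against -0.01 over all 6118 tested probe sets, of which 51.2% lay below normal. No member passed: limma's adjusted p was 0.9999 for each of the 22, and 0 of 6118 probe sets passed (0% called). At an unadjusted p under 0.05 there were 4 members, all below normal, while 0.409% of all tested probe sets lay below normal at that level. Several probe sets measure the same gene, so the 22 are not separate observations. Because the members were chosen with earlier results known, their counts beside all probe sets are descriptions and not an independent test. Counting each gene once, by its brightest tested probe set, all 9 genes lay below normal with a median of -0.61, against 50.8% of 3623 genes.

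**Figure D1:**
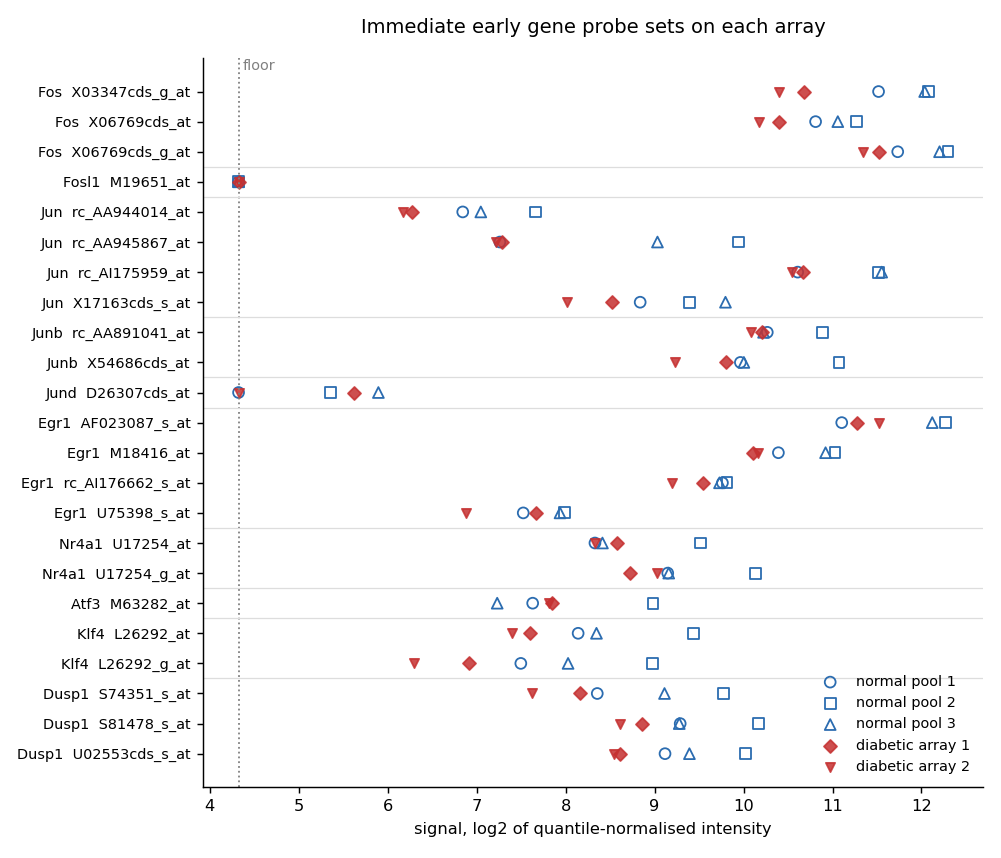
Log2 signal of each member probe set (rows, grouped by gene) on the 5 arrays, with open blue symbols for the 3 normal pools and filled red symbols for the 2 diabetic arrays; the dotted line is the floor of 4.32. In 15 rows both red symbols lie left of all blue ones, and normal pool 2 (squares) is the rightmost normal symbol in most rows.

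Both diabetic arrays lay below all 3 normal arrays for 15 of the 22 probe sets and above them for 0. Over all tested probe sets these shares were 7.01% and 9.53%. Such probe sets came from 7 genes, Fos, Jun, Junb, Egr1, Nr4a1, Klf4 and Dusp1. By the brightest probe set of each gene the count was 5 of 9, against 7.01% of all genes. The count depended on how the arrays were scaled. With each array scaled to a common median it was 5 of 22 (5.66% of all tested probe sets), namely both probe sets of Klf4 and 1 each of Fos, Jun and Dusp1. With the deposited values unscaled it was 1, of Fos, with 0.212% of all tested probe sets.

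Fos, the partner of Jun proteins in AP-1, separated the groups on each of its 3 probe sets after quantile normalisation. With median scaling only X03347cds_g_at did so. On the brightest, X06769cds_g_at, the normal pools stood at 11.73, 12.30 and 12.20 and the diabetic arrays at 11.52 and 11.34. The difference, diabetic minus normal, was -0.64 on the log2 scale (SE 0.31, 3 normal pools and 1 diabetic pool), that is 0.64 times the normal signal. Both diabetic arrays were under every normal pool, and the lowest normal pool was pool 1. A second probe set made to the same transcript sequence, X06769cds_at, gave 10.81, 11.27 and 11.06 in normal and 10.40 and 10.17 in diabetic cells (-0.76, SE 0.27). The third, X03347cds_g_at, differed most among the Fos probe sets, with normal pools at 11.52, 12.08 and 12.04 and diabetic arrays at 10.68 and 10.40. Its difference of -1.34 (SE 0.31, unadjusted p = 0.0061, limma's adjusted p = 0.9999) was 2.37 times the range of its normal pools. This is also the probe set that kept the groups apart unscaled, where its deposited intensities were 1751.6, 2362.8 and 6394.9 in normal and 1720.1 and 1450.4 in diabetic cells. The annotation lists it under another accession than the one its name carries, so its difference from the other Fos probe sets may not concern the same transcript.

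Fosl1, which encodes the Fos relative Fra-1, had no usable signal. Its probe set, M19651_at, had deposited intensities of 7.6 to 17.2 and lay at the floor on all 5 arrays after normalisation. No difference can be given for it.

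Jun, the central AP-1 subunit, was below normal on each of its 4 probe sets, but normal pool 1 lay as low as the diabetic arrays on 2 of them. On the brightest, rc_AI175959_at, the normal pools were at 10.61, 11.52 and 11.55 and the diabetic arrays at 10.67 and 10.55 (difference -0.62, SE 0.43). Pool 1 lay between the diabetic arrays. On rc_AA945867_at the normal pools spread widest of all members, from 7.26 in pool 1 over 9.03 in pool 3 to 9.95 in pool 2, with the diabetic arrays at 7.28 and 7.22. The difference there was -1.50 (SE 0.98), smaller than the range of 2.69 between normal pools, and it was -0.89 without pool 2. X17163cds_s_at read 8.84, 9.39 and 9.80 in normal and 8.52 and 8.01 in diabetic cells (-1.07, SE 0.41, unadjusted p = 0.043 by limma). The dimmer rc_AA944014_at read 6.84, 7.66 and 7.05 against 6.27 and 6.17 (-0.96, SE 0.47). Both of the latter separated the groups, but with median scaling only rc_AA944014_at did.

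Junb and Jund, relatives of Jun, had smaller differences than their own spread. Junb, an AP-1 subunit that can restrain Jun, was at 10.27, 10.89 and 10.22 in normal and 10.21 and 10.08 in diabetic cells on rc_AA891041_at (-0.31, SE 0.34). The groups did not overlap, but the higher diabetic array lay just under pools 1 and 3, and without pool 2 the difference was -0.10. The other probe set, X54686cds_at, gave 9.96, 11.07 and 10.003 against 9.80 and 9.22 (-0.83, SE 0.49), with pool 2 again the highest. This difference was -0.47 without pool 2 and -0.54 without diabetic array 2. With median scaling the groups overlapped on both Junb probe sets. Jund, the subunit that is usually expressed without stimulation, was dim, at 4.32, 5.36 and 5.89 in normal and 5.62 and 4.32 in diabetic cells, where 4.32 is the floor. Its groups overlapped (-0.22, SE 0.72), and its diabetic arrays differed by 1.30, more than the groups.

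Egr1, a zinc finger transcription factor driven by serum response factor, had the element-rich promoter shown above and 4 probe sets below normal by 0.40 to 0.64 on the log2 scale. On the brightest, AF023087_s_at, the normal pools were at 11.10, 12.27 and 12.12 and the diabetic arrays at 11.27 and 11.52 (-0.44, SE 0.50). Pool 1 was the lowest of the 5 arrays, so the groups overlapped. On M18416_at the values were 10.39, 11.03 and 10.92 against 10.11 and 10.16 (-0.64, SE 0.32), without overlap. On rc_AI176662_s_at the normal pools were nearly identical, at 9.76, 9.81 and 9.73, and the diabetic arrays lay below them at 9.55 and 9.19 (-0.40, SE 0.23). On U75398_s_at the diabetic arrays differed by 0.79, more than the groups (-0.54, SE 0.35), and they overlapped with pool 1. Without diabetic array 2 this difference was -0.14 and without diabetic array 1 it was -0.93, while rc_AI176662_s_at lay at -0.22 without diabetic array 2. On AF023087_s_at the difference was -0.22 without pool 2 and -0.80 without pool 1. Unscaled, AF023087_s_at and rc_AI176662_s_at lay above normal by 0.05 and 0.11. With median scaling the groups overlapped on all 4 Egr1 probe sets.

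Nr4a1, an orphan nuclear receptor induced like Fos, was highest in normal pool 2 on both probe sets. U17254_g_at read 9.15, 10.14 and 9.16 in normal and 8.72 and 9.02 in diabetic cells (-0.61, SE 0.46), without overlap. Without pool 2 this difference was -0.28, and between normal pool 3 and diabetic array 2, processed on the same day, it was -0.14. U17254_at read 8.33, 9.51 and 8.41 against 8.58 and 8.33 (-0.30, SE 0.52), with overlap. Without pool 2 the second probe set lay 0.08 above normal, and 0.19 above unscaled. With median scaling the groups overlapped on both Nr4a1 probe sets.

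Atf3, a stress-induced factor of the ATF and CREB family, was the member with the smallest difference. Its values were 7.63, 8.98 and 7.23 in normal and 7.84 and 7.81 in diabetic cells (-0.12, SE 0.70). Both diabetic arrays lay above pools 1 and 3 and below pool 2. Without pool 2 the difference was 0.40, and it was 0.38 unscaled, so no direction holds for this gene. Its 95% interval, from -1.86 to 1.62, includes the difference of every other member.

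Klf4, a zinc finger factor that restrains proliferation and is induced early in stressed cells, had the largest difference among the brightest probe sets. L26292_at read 8.14, 9.44 and 8.35 in normal and 7.60 and 7.40 in diabetic cells (-1.14, SE 0.55), or 0.453 times the normal signal. Both diabetic arrays were under every normal pool, and pool 2 stood 1.19 above the mean of pools 1 and 3. L26292_g_at read 7.50, 8.97 and 8.03 against 6.92 and 6.29 (-1.56, SE 0.60, unadjusted p = 0.043 by limma), or 0.339 times normal. This was the largest difference of the 22, and it exceeded the range of its normal pools, 1.48, by a small margin. Klf4 also kept its groups apart on both probe sets with median scaling. Without pool 2 the difference was -0.74 on the first and -1.16 on the second.

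Dusp1, the MAP kinase phosphatase whose promoter holds the complete CREB element, separated the groups on its 3 probe sets. This held with median scaling only for U02553cds_s_at, and unscaled for none of them. The brightest, S81478_s_at, read 9.29, 10.16 and 9.28 in normal and 8.86 and 8.61 in diabetic cells (-0.84, SE 0.42), or 0.558 times normal. U02553cds_s_at read 9.12, 10.03 and 9.39 against 8.61 and 8.54 (-0.94, SE 0.40). S74351_s_at read 8.35, 9.77 and 9.11 against 8.16 and 7.62 (-1.19, SE 0.55). Pool 2 was the highest array on all 3, and without it the differences were -0.55, -0.68 and -0.84.

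The normal pools differed from one another about as much as the groups did. The median range of the 3 normal pools over the member probe sets was 0.95, against 0.70 over all tested probe sets, and the median difference was 0.70 below normal. The size of the difference exceeded the range of the normal pools for 10 of 22 members, and for 14.5% of all tested probe sets. It exceeded the largest deviation of any 1 normal pool from its fellow normal pools for 11 of 22, and for 17.9% of all tested probe sets. By the brightest probe set of each gene, both held for 1 of 9 genes, Fos. After quantile normalisation pool 2 was the highest normal pool for 19 probe sets and pool 1 the lowest for 18. Set against the other normal pools, pool 2 lay at a median of 0.69, pool 1 at -0.58 and pool 3 at -0.02. Over all tested probe sets the medians were -0.01, -0.01 and 0.03. With median scaling pool 2 lay at 0.93, pool 1 at -1.10 and pool 3 at 0.20. Unscaled, the order differed, with pool 3 at 1.64, pool 2 at -0.20 and pool 1 at -1.36.

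**Figure D2:**
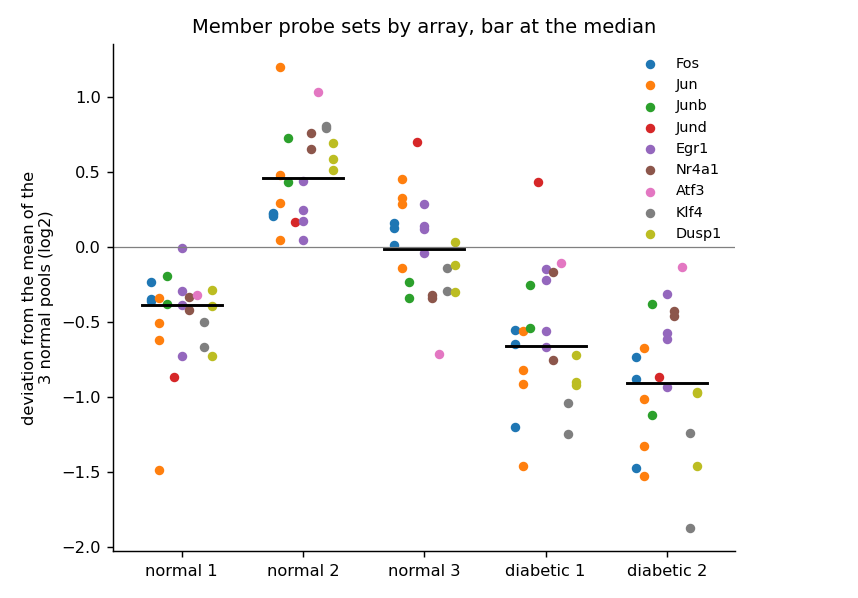
Deviation of each tested member probe set from the mean of the 3 normal pools (y axis, log2) on each array (x axis), coloured by gene, with a bar at the median of the 22 probe sets. The medians were -0.39, 0.46 and -0.01 for normal pools 1 to 3 and -0.66 and -0.91 for diabetic arrays 1 and 2, so normal pool 1 lies nearest to the diabetic arrays.

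The median gap between the 2 diabetic arrays over the members was 0.25, against 0.36 over all tested probe sets, and the group difference exceeded the gap for 20 of 22 probe sets, against 35.5% of all. Diabetic array 2 was the lower for 19 of 22. Since they are labelled as repeats of 1 preparation, the gap does not measure how diabetic pools vary.

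**Figure D3:**
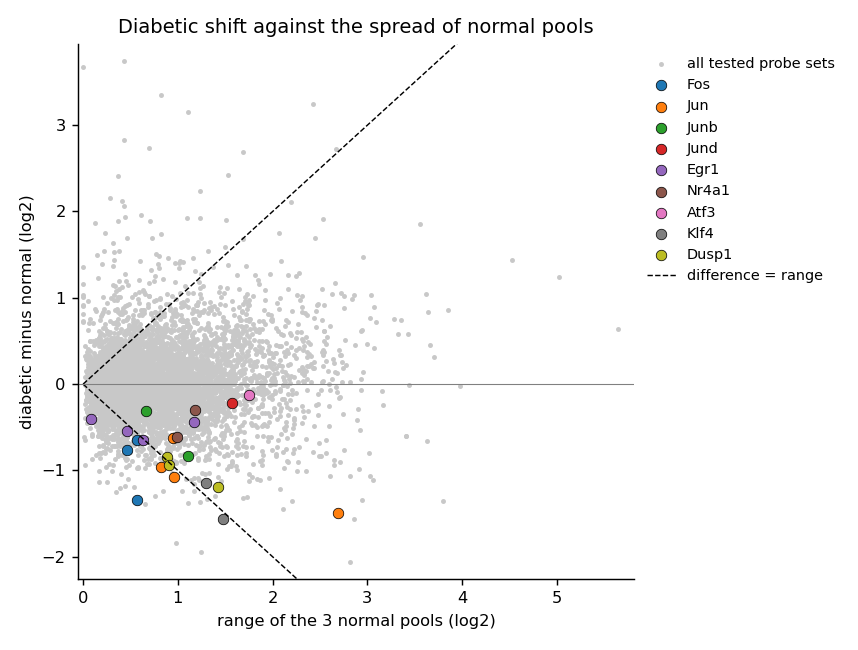
Diabetic minus normal difference (y axis, log2) against the range of the 3 normal pools (x axis, log2) for all 6118 tested probe sets in grey and the members in colour; dashed lines mark a difference equal to the range. All coloured points lie below 0 (5 of 22 lay above it with unscaled values), and 10 of 22 lie beyond the lower dashed line.

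Single arrays changed the size of the differences more than their direction. Without normal pool 2 the median was -0.53, with 8 probe sets over 1.5 times smaller and 2 turned above normal, those of Atf3 and U17254_at of Nr4a1. Without normal pool 1 it was -0.90, and 12 members had an unadjusted p under 0.05 by limma, against 4 with all arrays. The number of all tested probe sets below normal at that level moved too, from 25 to 150 of 6118. Without normal pool 2 these numbers were 1 member and 6 probe sets in all, and without normal pool 3 they were 1 and 13. Without diabetic array 1 they were 6 and 121, and without diabetic array 2 they were 1 and 116. Jund lay above normal without normal pool 3 (0.13) and without diabetic array 2 (0.43). The adjusted p stayed above 0.05 for every member in each of these fits.

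The arrays also differed in the actin ratio and in processing. Signal from the 3′ end of actin over that from its 5′ end, a ratio that rises as RNA degrades, came to 2.61 for normal pool 1 and 2.55 for diabetic array 2, and lay between 1.46 and 1.76 elsewhere. The same ratio for GAPDH did not mark normal pool 1, which had 1.16 where normal pools 2 and 3 had 1.24 and 1.033, diabetic array 1 had 1.11 and diabetic array 2 had 1.35. Normal pool 1 and diabetic array 2 are also the lowest array of their group for most members. Whether RNA quality bears on the member values was not tested. The 3 arrays with the low ratio alone (normal pools 2 and 3, diabetic array 1) were compared after the data were seen. On them all 22 probe sets lay below normal, with a median of -0.87, where all tested probe sets had a median of 0.006. Jund was nearly unchanged there, at -0.003, and Egr1 rc_AI176662_s_at and U75398_s_at were at -0.22 and -0.29. This choice of arrays leaves out normal pool 1, the lowest normal pool for 18 of 22 probe sets. Leaving out that pool alone already gave a median of -0.90. Normal pool 3 and diabetic array 2 shared a processing day and chip lot. Between them 21 of 22 lay below normal, with a median of -0.87, where all tested probe sets had a median of 0.01 and 48.2% below. The exception was Atf3, at 0.58. Normal pools 1 and 2 each had their own day and lot, and none is recorded for diabetic array 1, so batch and pool cannot be told apart further.

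Most Müller cell markers were bright on all arrays, though Kcnj10, a potassium channel gene of these cells, was dim at 4.96 to 6.30, and markers of other retinal cells were measured too. All 10 Müller cell markers measured of 14 listed were tested, among them Glul, Slc1a3, Apoe and Vim. Their summed signal was 36675 to 48109 in normal and 42242 to 43298 in diabetic cells. By direction, 7 of the 10 lay below normal and 3 above, with a median of -0.14. Unscaled, all 10 lay above normal, and 7 lay below the median of all tested probe sets. Photoreceptor markers (8 tested of 8 measured and 16 listed) summed to 5191.4 to 11868 in normal and 14768 to 15228 in diabetic cells, with 8 of 8 above normal. Leukocyte markers (8 tested of 10 measured and 14 listed) summed to 1426.5 to 1700 and 2021.2 to 2243, also with 8 of 8 above normal. Both counts were 8 of 8 under median scaling too. Unscaled, 8 of 8 photoreceptor markers and 7 of 8 leukocyte markers lay above the median of all tested probe sets. No measured marker of these lists had a deposited intensity of 0, while Itgam and Csf1r were too dim to be tested. Their part in the lower member values was not tested, and fewer cells of a type and less RNA per cell cannot be told apart in such pools.

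Other immediate early genes were mixed, with more below normal than above. Of 43 listed, 28 were on the chip and 27 were tested: 18 lay below normal and 9 above, with a median of -0.19. Unscaled, 4 lay below and 23 above normal, and 19 lay below the median of all tested probe sets. Both diabetic arrays lay below all normal arrays for 7 of the 27 and above them for 2. Over all tested probe sets these shares were 7.01% and 9.53%. At an unadjusted p under 0.05 by limma there was 1 gene, Hes1, below normal, against 0.409% of all tested probe sets. In limma's adjusted test 0 passed. The 3 with the largest moderated statistic were Hes1, a repressor in the Notch pathway, Ptgs2, the inducible cyclooxygenase, and Id1, an inhibitor of helix-loop-helix factors. Hes1 read 10.46, 10.59 and 10.48 in normal and 9.78 and 9.61 in diabetic cells (-0.82, SE 0.23). Ptgs2 read 6.81, 7.10 and 7.20 against 6.42 and 6.22 (-0.71, SE 0.39). Id1 read 8.97, 10.27 and 9.56 against 8.50 and 8.97 (-0.86, SE 0.51). The groups of Hes1 and Ptgs2 did not overlap, and diabetic array 2 of Id1 reached pool 1. The tested relatives of Fos, Egr1 and Nr4a1 in this list were Fosl2 at 0.17 (SE 0.71), Egr2 at -0.07 (SE 0.80), Egr4 at -0.53 (SE 0.48), Nr4a2 at 0.04 (SE 0.60) and Nr4a3 at -0.21 (SE 0.72). They are named outside the rule, after their values were seen, and each overlapped between groups.

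Genes upstream of the members and their partners lay on both sides of normal. Of the 9 tested kinases and factors that act upstream, 5 lay below and 4 above normal (median -0.02). The growth factor receptor Fgfr1 had the largest statistic, at 0.87 (SE 0.34), followed by Creb1 at -0.67 (SE 0.48) and the kinase Map2k1 at -0.35 (SE 0.37). Creb1, the factor that binds the CREB element, read 6.61, 6.25 and 6.04 in normal and 5.75 and 5.51 in diabetic cells, without overlap. Of the 9, only Creb1 lay below all normal arrays in this way and only Fgfr1 above them. Over all tested probe sets these shares were 7.01% and 9.53%, and a link of Creb1 to the members was not tested. Of 4 other MAP kinase phosphatases tested, 3 lay above normal and Dusp5 at -0.25 (SE 0.48) below, with Ptpn5 at 0.48 (SE 0.53) and Dusp6 at 0.35 (SE 0.42). Of 6 AP-1 relatives, 4 lay above normal, led by Nfe2l2, the regulator of antioxidant genes, at 1.22 (SE 0.49). Maf, a large leucine zipper factor, was at 0.31 (SE 0.37). None of these passed limma's adjusted test. Unscaled, 7 of the 9 upstream genes and all 4 phosphatases lay above normal, and 2 of the 4 phosphatases above the median of all probe sets.

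Genes with known AP-1 sites lay above normal more often than below. Of 11 tested, 7 lay above and 4 below normal, with a median of 0.20. The bone and wound protein gene Spp1 was at 3.15 (SE 0.62) and the metalloproteinase inhibitor Timp1 at 0.69 (SE 0.33). The glutathione transferase Gstp1 was at 0.41 (SE 0.28). Both diabetic arrays of each lay above all normal arrays. This held for 4 of the 11, and 0 lay below all normal arrays. Over all tested probe sets these shares were 9.53% and 7.01%. A link of these genes to the members was not tested. Heat shock genes, which respond to stress through another factor, lay below normal for 8 of 10 genes with a median of -0.13. Hspa1a was at -0.29 (SE 0.26), Hspe1 at -0.23 (SE 0.28) and Hsph1 at -0.34 (SE 0.42), and all 3 overlapped between groups. Unscaled, all 11 genes with AP-1 sites and all 10 heat shock genes lay above normal, and 8 of the 10 heat shock genes lay below the median of all probe sets. In these lists too, 0 genes passed the adjusted test.

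**Figure D4:**
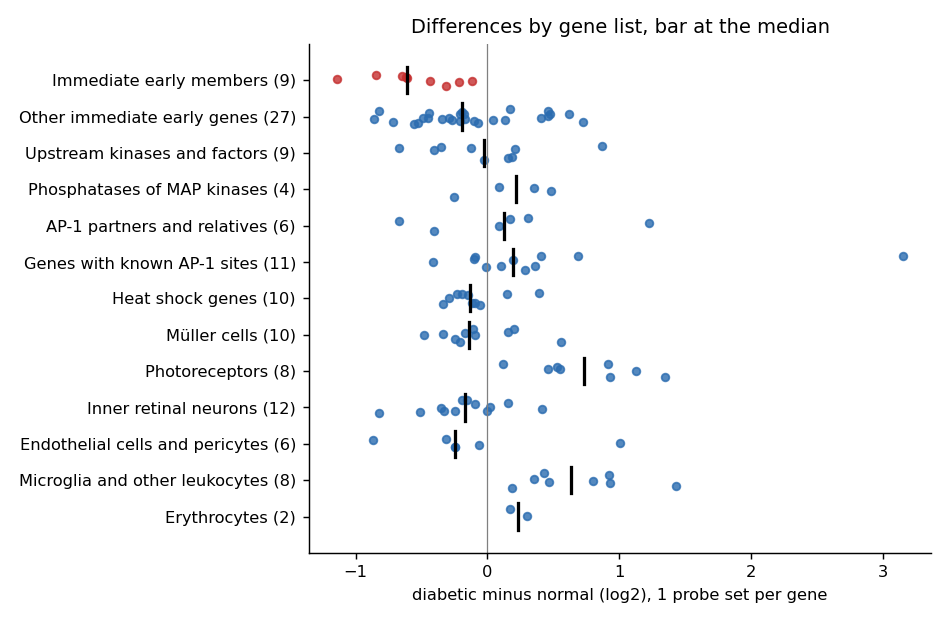
Diabetic minus normal difference (x axis, log2) of each gene by its brightest tested probe set, in rows by list with the number of genes in brackets; red points are the members and black bars are medians. All 9 member genes lie below 0 with a median of -0.61 (unscaled, Egr1, Atf3 and Junb lay above it), while photoreceptor and leukocyte markers lie above 0.

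The tested genes with the array profile most like that of Fos were found by the root mean square distance between log2 values, each centred on its own mean over the 5 arrays. The 5 closest genes outside the members were Csnk1d, at 0.036 (a casein kinase), Gdi2, at 0.067 (a regulator of Rab proteins), Cops7a, at 0.084 (a COP9 signalosome subunit), Vars1, at 0.094 (valyl-tRNA synthetase), and Ptgs2, at 0.095. Csnk1d read 8.45, 8.92 and 8.90 in normal and 8.17 and 7.98 in diabetic cells. Among the members Jun was closest to Fos, at 0.157, followed by Junb at 0.257, Egr1 at 0.27 and Dusp1 at 0.272, while Jund and Atf3 were farthest, at 0.54 and 0.586. With 5 arrays to compare over, small distances can arise among this many probe sets, and nothing about shared control follows from them.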

How the data were processed

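Total RNA of rat Müller cells was measured on 5 Affymetrix arrays of type RG_U34A, per the file headers. Each deposited value is the intensity of a probe set on a linear scale. How the authors summarised and scaled it is not given in the sources used here. Medians ran from 27.9 to 91.3, so the values were quantile-normalised here, floored at 20 and put on a log2 scale; the deposited table itself holds no log2 values. Without 59 control probe sets there were 8740, and dropping the dimmest 30% left 6118. Fold changes of dim genes are understated by the floor, and the number of arrays limits precision.

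The test was limma's (3.58.1, R 4.3.3; lmFit, eBayes with trend), 3 normal pools against the averaged diabetic one, two-sided, with Benjamini-Hochberg adjustment over all 6118 probe sets and a threshold of 0.05. Residual degrees of freedom were 2 and prior ones 3.54, and the 1 diabetic pool was assumed to vary like the normal ones. The step was run on simulated data whose spreads were drawn from the fitted model. Recovery was checked only for changes larger than any member difference. That run therefore does not show whether the test could call differences of the members' size. An exact permutation test on these 4 pools cannot give a p under 0.25. Ranges for a difference are 95% intervals from this fit.

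Symbols came from the platform annotation, and probe sets with several symbols were not named. Names ending in _s_at mark probe sets that may match several transcripts. A gene is led by its brightest tested probe set. All member probe sets are given, with the 3 genes of each list that have the largest moderated statistic and the 5 genes nearest to Fos. The lists also covered inner retinal neurons, endothelial cells with pericytes, and erythrocytes, whose median differences were -0.17, -0.24 and 0.23. The members and lists were chosen with earlier results of these data known. Alternatives were 2 other scalings, floors of 1 and 50, 2 other filters, no trend in eBayes, 5 unaveraged arrays, leaving out each array, the arrays of the shared day, and the low actin arrays alone, which was chosen after seeing the data. Plots used matplotlib 3.10.9.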

Additional observations from a re-analysis of the deposited data

How the results depend on the processing

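With the deposited values unscaled, 1 member probe set rather than 15 lay outside the normal range, and the median difference was -0.22 rather than -0.70, while the median over all tested probe sets became 0.47. The members therefore lay -0.70 from that median, against -0.69 in the main setting, and all 22 lay below it. Unscaled, 5 probe sets turned above normal: Egr1 AF023087_s_at (0.049) and rc_AI176662_s_at (0.11), Atf3 (0.38), Junb rc_AA891041_at (0.16) and Nr4a1 U17254_at (0.19). With median scaling 5 lay outside the normal range. Leaving out 1 array moved Jund between -0.87 and 0.43, Atf3 between -0.48 and 0.40 and Nr4a1 U17254_at between -0.51 and 0.08. Without normal pool 2, Atf3 (0.40) and Nr4a1 U17254_at (0.082) turned above normal, as did Jund without normal pool 3 (0.13) and without diabetic array 2 (0.43). Leaving out 1 array gave medians from -0.91 to -0.53 and 15 to 19 probe sets outside the range, 1 of them above it without normal pool 2. The share of all tested probe sets below the range was then 12.2% to 22%, against 7.01% with all arrays, so these counts have a different background. Over all probe sets 0 passed in the main setting, 170 without the filter and 13 with the arrays as 5 samples, none of them members. No member passed limma's adjusted test under any alternative, and 4 had an unadjusted p under 0.05 in the main setting, against 0 unscaled, 2 with median scaling, 1 without trend and 13 with the arrays as 5 samples. Of all tested probe sets, 25 lay below normal at that level in the main setting and 0, 8, 21 and 78 in these settings. The other floors and filters kept the median between -0.76 and -0.65. Fosl1 enters only without the filter, at the floor. No paired analysis was possible because the groups share only the number 2 in their labels, for a biological replicate in the normal group and a technical one in the diabetic group.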
